A study of Mus musculus with 12 samples.

Results

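The 10 genes described here, Atf3, Sox11, Gap43, Sprr1a, Gal, Npy, Vip, Adcyap1, Ecel1 and Gadd45a, are known as genes that neurons switch on after their axon is cut. They were listed by name as known injury genes, with earlier results of these data known, and were found as every probe set whose platform annotation gives exactly 1 gene symbol, that of a member. This gave 16 probe sets among the 45037 measured, and 10 genes among 18193: Sox11 has 6 probe sets, Adcyap1 has 2, and the other 8 genes have 1 each.

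RNA was measured on 12 Affymetrix expression arrays in 4 groups of 3, each array a biological replicate per the labels. The groups were wild type and Gdap1-/- mice, aged 2 months and untreated, with lysed sciatic nerve or motoneurons taken by laser dissection. The knockout lacks exon 5 of Gdap1, a gene of the outer mitochondrial membrane whose mutations cause a form of Charcot-Marie-Tooth neuropathy, and the Gdap1 probe sets lie outside that exon, so they do not check the genotype labels. Every sample started from 20 ng of RNA, but each tissue had its own extraction kit, and the design text names 5 mice and says that RNA yield and quality decided which samples were used. The question addressed here is whether neurons or nerve of untreated mice without Gdap1 show the transcripts of an injury response. No group had a nerve injury, so the arrays hold no positive control for one.

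When an axon is cut, signals carried back to the cell body activate transcription factors of the ATF, Jun and Sox families, which switch the neuron from transmission to regrowth. Proteins of the growth cone and neuropeptides such as galanin then rise, and in the nerve itself Schwann cells turn into repair cells. Atf3 can form dimers with Jun, and such dimers are known to bind AP-1 and CRE sequences.

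Promoters are shown for 3 genes: Sprr1a, the only one of the 9 members searched that held AP-1 letters, Atf3, the gene of the factor itself, and Ecel1, which had the largest difference between the tissues. Each run is the 250 bases before a RefSeq transcript start in build GRCm38.p6, 5′ to 3′ on the gene's strand, with AP-1 letters in capitals. All 3 genes lie on the minus strand, Sprr1a at chr3:92485882-92486131, Atf3 at chr1:191183334-191183583 and Ecel1 at chr1:87156357-87156606.
Sprr1a: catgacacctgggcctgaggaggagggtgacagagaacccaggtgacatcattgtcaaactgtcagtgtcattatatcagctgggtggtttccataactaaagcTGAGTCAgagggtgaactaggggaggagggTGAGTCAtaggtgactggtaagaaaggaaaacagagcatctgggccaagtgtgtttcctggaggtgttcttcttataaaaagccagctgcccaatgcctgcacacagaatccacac
Atf3: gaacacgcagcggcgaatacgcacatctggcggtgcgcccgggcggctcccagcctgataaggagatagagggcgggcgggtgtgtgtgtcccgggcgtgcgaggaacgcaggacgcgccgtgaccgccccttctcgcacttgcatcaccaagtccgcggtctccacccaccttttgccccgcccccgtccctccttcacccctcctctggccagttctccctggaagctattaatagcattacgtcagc
Ecel1: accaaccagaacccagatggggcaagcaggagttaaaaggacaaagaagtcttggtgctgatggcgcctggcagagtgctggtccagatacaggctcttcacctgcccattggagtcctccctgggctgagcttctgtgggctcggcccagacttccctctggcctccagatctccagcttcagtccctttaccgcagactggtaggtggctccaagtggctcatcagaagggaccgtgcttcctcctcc

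Both strands of windows of 300 bases, these 250 and the 50 after the start, were searched for AP-1 (TGACTCA or its reverse complement TGAGTCA) and CRE (TGACGTCA) letters, which do not overlap in a single match. RefSeq promoters were found for 9 of the 10 genes, in 10 windows, with Gap43 the exception. Sprr1a held 2 AP-1 matches, which begin at -146 and -116 from the start, and no window of the other 8 genes searched held one. AP-1 letters occurred in 5.20% of all 32851 promoter windows and at 2 or more places in 0.222%. CRE letters occurred in none of these 10 windows and in 1.79% of all windows. A match describes the sequence and no match says only that these letters are not in the window.

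All values below are log2 expression values as deposited. Array medians lay between 6.53 and 6.59 in motoneurons and between 8.29 and 8.40 in nerve. The tissues appear to have been scaled apart from each other, by 1.77 at the median, so levels cannot be set directly against each other across the tissues. Motoneuron arrays carried Isl1 at 10.95 to 11.72 and Mnx1 at 9.32 to 9.74, transcription factors of motoneurons, and a mean over 9 motoneuron markers of 11.62 to 11.92. Chat, the acetylcholine-synthesising enzyme, was low there by its probe set, at 4.19 to 5.30. Markers of other cells were also measured in the captured motoneurons, with list means of 9.90 to 10.64 for astrocytes, 10.62 to 11.73 for oligodendrocytes and 9.32 to 10.29 for spinal interneurons. Nerve arrays had a Schwann cell list mean of 14.35 to 14.58. Xist, transcribed in females, was high on 5 of the 6 motoneuron arrays, all but knockout replicate 2, and on nerve wild type replicate 2 and nerve knockout replicate 3. By this marker sex was not balanced between the motoneuron genotypes or between the tissues, while the nerve genotypes had the same number of such arrays.

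**Figure D1:**
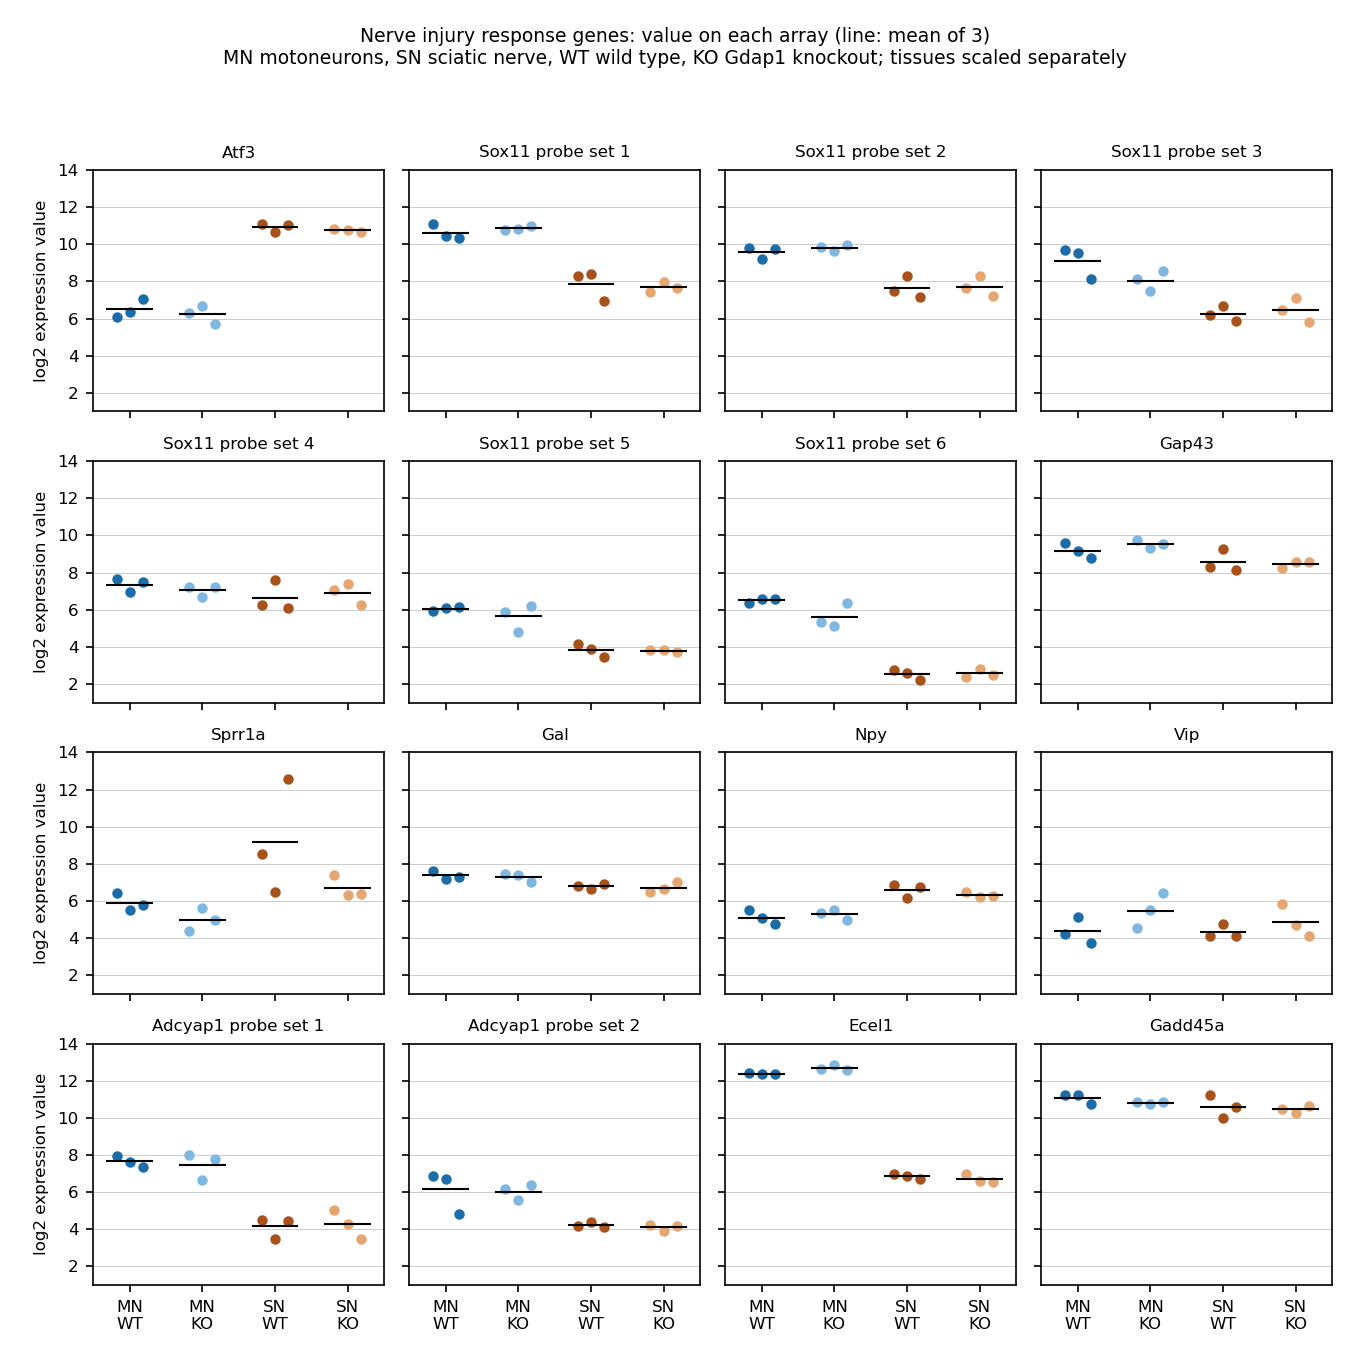
Log2 expression value (y axis) of the 16 probe sets of the 10 genes on each of the 12 arrays, as deposited. Each point is an array, each line the mean of 3, and the groups along the x axis are motoneurons (MN) and sciatic nerve (SN) of wild type (WT) and knockout (KO) mice. Ecel1 sits above 12 in motoneurons and below 7 in nerve, Atf3 sits above 10 in nerve, and 1 wild type nerve array carries Sprr1a at 12.58.

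To place low values, probe sets of 3 Y-linked genes were read on arrays with high Xist, where their transcripts should be absent. They reached at most 4.25 on 5 motoneuron arrays and 5.39 on 2 nerve arrays. In motoneurons 15 of the 16 member probe sets exceeded that level on all 6 arrays, and 9 exceeded the array's median on all 6. In nerve 11 exceeded the Y-linked level on all 6 arrays and 2, those of Atf3 and Gadd45a, exceeded the median on all 6. Both Y-linked levels lay below every array median of their tissue, so most probe sets of any array exceed them. The share of all probe sets that did so on all 6 arrays was not computed. These counts therefore do not set the members apart from other genes. Adcyap1 and Sox11 probe sets 5 and 6 did not rise above the Y-linked level in nerve.

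Between genotypes no member passed the test. In motoneurons 0 of the 16 probe sets passed an adjusted p of 0.05 in the limma fit over all probe sets, against a background of 0% called, and 4 had an unadjusted p below 0.05, where 17.0% of all probe sets did. The values of 6 were higher and of 10 lower in knockout, with a median difference of -0.14 beside 0.039 over all probe sets. Sox11 gave 6 of the 16 probe sets and Adcyap1 2. With 1 probe set for each gene, that of highest mean, 5 genes were higher and 5 lower. Their median was 0.042, beside 0.018 over all 18193 genes. In nerve 0 of 16 passed, again against 0% of all, none had an unadjusted p below 0.05 where 2.31% of all did, and the median difference was -0.082 beside 0.010. By gene 2 were higher and 8 lower in knockout nerve, with a median of -0.15 beside -0.0019 over all genes. No difference of the genotype effect between the tissues was called by the interaction test, where 0 members passed (0% of all), 2 had an unadjusted p below 0.05 where 7.54% of all probe sets did, and the smallest member adjusted p was 0.649. In motoneurons the 3 knockout values of 1 probe set, that of Ecel1, all lay above the 3 wild type values, an arrangement found for 12.7% of all probe sets, and those of 1 probe set, of Sox11, all lay below, as for 9.77% of all. In nerve no member had groups that did not overlap, where 3.58% of all probe sets did with higher and 3.67% with lower knockout values.

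**Figure D2:**
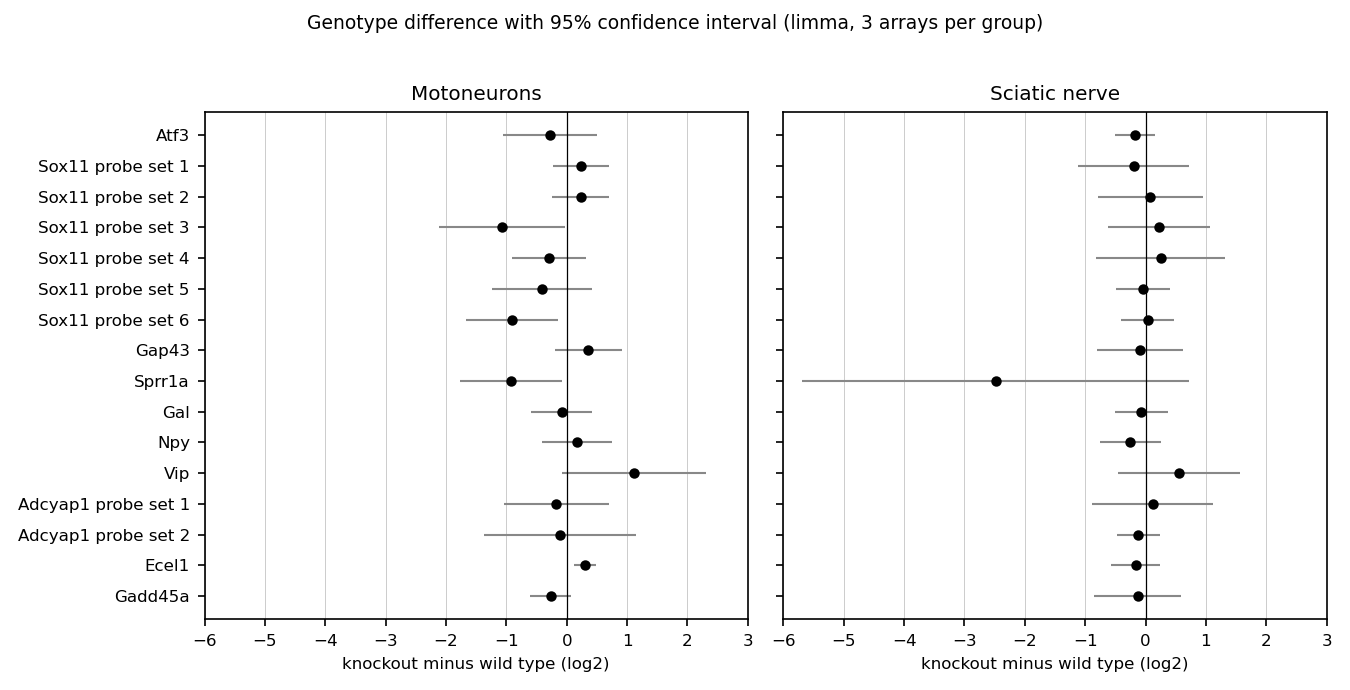
Knockout minus wild type difference (x axis, log2) of each member probe set with its 95% confidence interval from limma, 3 arrays per group, in motoneurons and in sciatic nerve. In motoneurons the intervals of Ecel1, Sprr1a and Sox11 probe sets 3 and 6 leave out 0 before adjustment over all probe sets, and in nerve the interval of Sprr1a, from -5.69 to 0.72, is the widest.

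Between tissues 12 of the 16 probe sets passed in wild type and 14 in knockout, which is near the share over all probe sets, 82.1% and 82.7%. The directions were unlike those of all probe sets. In wild type 9 of the 16 probe sets passed with higher values in motoneurons, where 14.3% of all probe sets did, and 3 passed with lower values, where 67.9% did. In knockout 11 passed as higher (15.2% of all) and 3 as lower (67.5% of all). The median difference of the member probe sets, motoneurons minus nerve, was 1.31 in wild type and 1.32 in knockout, beside -1.09 and -1.04 over all probe sets. Many of the higher probe sets were those of Sox11. With 1 probe set for each gene, 4 of the 10 genes passed as higher and 3 as lower in wild type, and 6 and 3 in knockout. The shares of all genes that passed as higher or lower were not computed, as deposited or under the scalings below. The medians by gene were 0.53 and 0.59, beside -0.90 and -0.86 over all genes. With both tissues quantile normalized together, and also with each array centred on its median, 13 probe sets passed as higher and 1 as lower in wild type and 14 and 1 in knockout. Of all probe sets 72.5% and 79.6% then passed in wild type, 54.6% and 69.0% of these as higher. In knockout 74% and 81.5% passed, 54.7% and 69.5% of them as higher. The wild type median of the member probe sets was then 2.83 and 3.07, beside 0.15 and 0.67 over all probe sets. By gene 7 passed as higher and 1 as lower in wild type under each scaling, with medians of 1.70 and 2.29. As deposited, the higher probe sets belonged to Sox11, Gal, Adcyap1 and Ecel1 in both genotypes, and the lower ones to Atf3, Sprr1a and Npy. In nerve lysate, fewer cells of a type and less RNA per cell cannot be told apart, and neuronal cell bodies are not part of the nerve trunk.

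Atf3 (Entrez gene 11910, chromosome 1) encodes a stress-induced transcription factor widely used to mark injured neurons, and is also known to be induced by stress in other cells. In wild type motoneurons it read 6.09, 6.36 and 7.06 and in knockout motoneurons 6.30, 6.67 and 5.71. The groups overlapped, and 2 of these 6 values, 1 of each genotype, lay above their array's median. The difference was -0.28 (SE 0.34, 95% interval -1.06 to 0.51, adjusted p = 0.731 by limma), so the interval reaches up to a rise of 0.51.

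In nerve Atf3 read 11.08, 10.69 and 11.02 in wild type and 10.82, 10.79 and 10.66 in knockout. These values overlapped between genotypes and differed by -0.17 (SE 0.14, interval -0.50 to 0.16, adjusted p = 1 by limma). Motoneurons were lower than nerve, with differences of -4.42 (SE 0.27, adjusted p = 2.2e-06) in wild type and -4.53 (SE 0.25, adjusted p = 3.3e-07) in knockout. Quantile normalization of both tissues together gave -3.08 and centring on the array median -2.66 in wild type, with the same direction.

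Sox11 (Entrez gene 20666, chromosome 12) encodes a transcription factor of developing neurons that is known to return in regenerating ones. Its 6 probe sets are numbered here by their mean, which serves only to name them. Probe set 1 read 11.08, 10.45 and 10.35 in wild type motoneurons and 10.78, 10.82 and 10.99 in knockout. It was far lower in nerve, at 8.31, 8.39 and 6.95 in wild type and 7.43, 7.99 and 7.64 in knockout, and genotypes overlapped in both tissues.

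The Sox11 probe sets did not move together between genotypes in motoneurons. Probe sets 1 and 2 had higher knockout means, by 0.24 (SE 0.20) and 0.23 (SE 0.20). Probe sets 3 to 6 had lower ones, with differences of -1.07 (SE 0.45), -0.29 (SE 0.26), -0.41 (SE 0.36) and -0.90 (SE 0.33), and none of the 6 passed by limma.

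Probe set 6 of Sox11 was the member whose knockout values all lay below wild type: 6.38, 6.60 and 6.56 in wild type motoneurons against 5.32, 5.13 and 6.37 in knockout. Knockout replicate 3 lay just under the lowest wild type value, and the adjusted p was 0.232 by limma (0.0265 unadjusted). Probe set 3 read 9.67, 9.54 and 8.12 in wild type and 8.14, 7.46 and 8.53 in knockout, with an adjusted p of 0.286. Here wild type replicate 3 lay with the knockout arrays. Without that array the difference of Sox11 probe set 3 was -1.56 and passed (adjusted p = 0.0222), in a fit that calls 10.3% of all probe sets. Wild type replicate 3 of probe set 1 was also the lowest of its group, but the knockout values of that probe set were not below wild type.

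Between tissues 5 of the 6 Sox11 probe sets passed as higher in motoneurons in both genotypes, by 1.93 to 3.98 in wild type and by 1.58 to 3.18 in knockout. Probe set 4 did not pass as deposited, at 0.70 (adjusted p = 0.147) and 0.16 (adjusted p = 0.657), and did at 2.39 and 1.91 after quantile normalization of both tissues together. In wild type it also passed without nerve wild type replicate 2, at 1.18 (adjusted p = 0.0053). In nerve the Sox11 probe sets 5 and 6, at 3.44 to 4.14 and 2.23 to 2.83, were no higher than Y-linked probe sets on arrays with high Xist, so those differences are against a background level.

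Gap43 (Entrez gene 14432, chromosome 16) encodes a membrane-bound protein of growth cones. It was well measured in motoneurons, at 9.62, 9.14 and 8.76 in wild type and 9.73, 9.31 and 9.56 in knockout. The lowest array was wild type replicate 3 and the groups overlapped, with a difference of 0.36 (SE 0.24, interval -0.20 to 0.92, adjusted p = 0.495 by limma). In nerve Gap43 read 8.30, 9.26 and 8.12 in wild type and 8.23, 8.58 and 8.59 in knockout, a difference of -0.093 (SE 0.31). The tissue difference passed in knockout (1.07, SE 0.18, adjusted p = 0.00055) and not in wild type (0.62, SE 0.35, adjusted p = 0.132), where wild type nerve replicate 2 lay among the motoneuron values. Without that array it passed in wild type as well, at 0.97 (adjusted p = 0.0171), as it did after quantile normalization of both tissues together (1.997, adjusted p = 0.0018) and after centring (2.38, adjusted p = 0.00033).

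Sprr1a (Entrez gene 20753, chromosome 3) encodes a small proline-rich protein of the cornified envelope of skin that injured neurons are known to make. In wild type motoneurons it read 6.41, 5.50 and 5.80 and in knockout 4.36, 5.61 and 4.96, all below the arrays' medians. Knockout replicate 2 lay within the wild type range, and the difference of -0.93 (SE 0.36) did not pass (adjusted p = 0.260 by limma). Its interval, before adjustment over all probe sets, ran from -1.77 to -0.083.

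In nerve Sprr1a spread over the widest range of any member, with 8.52, 6.46 and 12.58 in wild type and 7.42, 6.32 and 6.37 in knockout. The mean difference of -2.48 (SE 1.37, adjusted p = 1 by limma) rested on wild type replicate 3 and was -0.79 without it. Without the nerve arrays of high Xist, wild type replicate 2 and knockout replicate 3, the Sprr1a difference was -3.68.

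The nerve array with the highest Sprr1a also carried transcripts of skin and hair. Of 38 genes of keratin-associated proteins, which build the hair shaft, 36 were highest on wild type replicate 3 among the 6 nerve arrays, and their mean was 10.78 there against 4.49 to 5.61 on the others. All 9 genes of an epidermal list, chosen after the values were seen, were highest there too, with a mean of 10.14 against 6.71 to 7.57, and the next highest of these means was on wild type replicate 1, which also had the second highest Sprr1a. Among them Dsp, of desmosomes, read 12.54 on replicate 3 and Krt5, of basal keratinocytes, 10.19. The Schwann cell list mean on this array was 14.55, within the range of the others. The skeletal muscle list mean was 13.92 on wild type replicate 1 and 12.73 on replicate 3, against 8.62 to 11.07 on the other nerve arrays. The part of skin, hair or muscle tissue in the Sprr1a values was not tested.

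**Figure D3:**
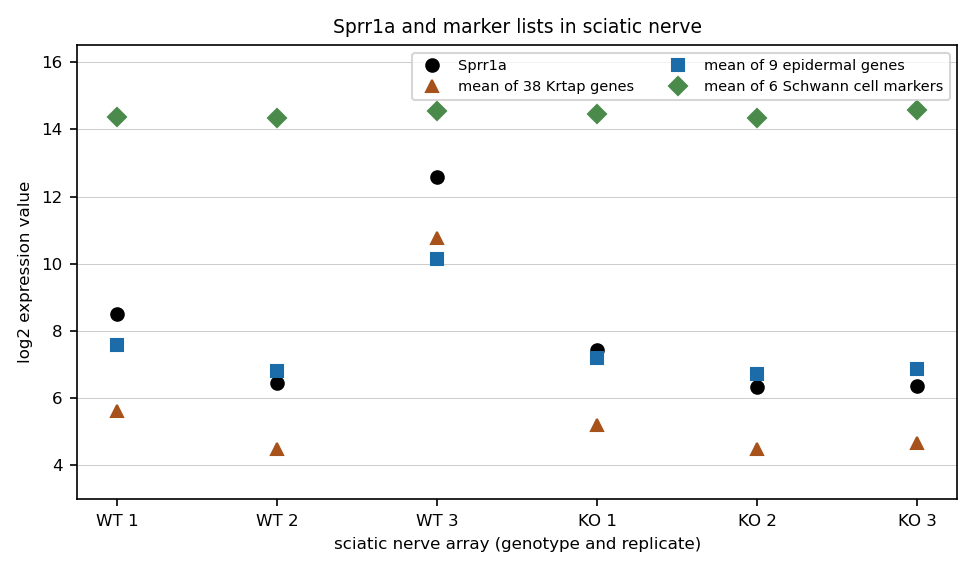
Sprr1a and the mean of 38 keratin-associated protein genes (Krtap), of 9 epidermal genes and of 6 Schwann cell markers (y axis, log2 expression value) on each of the 6 sciatic nerve arrays (x axis). Wild type replicate 3 is highest for Sprr1a (12.58), the Krtap genes (10.78) and the epidermal genes (10.14), while the Schwann cell mean stays between 14.35 and 14.58 on all 6 arrays.

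The size of the wild type tissue difference of Sprr1a depended on nerve wild type replicate 3, and its call on other arrays and on the scaling. In wild type the difference, motoneurons minus nerve, was -3.28 (SE 1.32, adjusted p = 0.0480 by limma) as deposited and -1.59 (adjusted p = 0.0420) without nerve wild type replicate 3. The Sprr1a call was lost without nerve wild type replicate 1 (adjusted p = 0.0733) and without each of the motoneuron arrays (0.0795, 0.111 and 0.0967), and at -1.65 (adjusted p = 0.337) after quantile normalization of both tissues together. In knockout the difference was -1.73 (SE 0.39, adjusted p = 0.0028) as deposited and turned to 0.11 after quantile normalization and 0.049 after centring, with adjusted p of 0.806 and 0.910.

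The neuropeptide genes of the set encode secreted peptides: galanin, neuropeptide Y, vasoactive intestinal peptide and PACAP, the product of Adcyap1. Gal (Entrez gene 14419, chromosome 19) read 7.63, 7.20 and 7.32 in wild type motoneurons and 7.47, 7.40 and 7.02 in knockout, above the median of every array. In nerve it read 6.82, 6.62 and 6.94 in wild type and 6.51, 6.64 and 7.03 in knockout, below the median of every array. Between genotypes Gal differed by -0.083 (SE 0.22, interval -0.59 to 0.42) in motoneurons and -0.070 (SE 0.19, interval -0.51 to 0.37) in nerve.

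Gal passed as higher in motoneurons by 0.59 in wild type (SE 0.19, adjusted p = 0.0213 by limma) and 0.57 in knockout (SE 0.22, adjusted p = 0.0396). Both Gal calls were narrow: the wild type call was lost without nerve wild type replicate 1, nerve wild type replicate 2 or motoneuron wild type replicate 1 (adjusted p = 0.0559, 0.0713 and 0.0662). In knockout it was lost without nerve replicates 1 or 2 or motoneuron replicates 1 or 2 (0.119, 0.0981, 0.118 and 0.0908). After quantile normalization of both tissues together the wild type Gal difference was 2.31.

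Npy (Entrez gene 109648, chromosome 6), a peptide of sympathetic and many central neurons that injured large sensory neurons begin to make, read 5.51, 5.07 and 4.74 in wild type motoneurons and 5.33, 5.50 and 4.99 in knockout. In nerve it read 6.84, 6.15 and 6.75 in wild type and 6.46, 6.23 and 6.29 in knockout. Npy lay below the median of every array in both tissues and its genotypes overlapped in both. As deposited Npy was lower in motoneurons, with differences of -1.47 (adjusted p = 0.0011 by limma) in wild type and -1.05 (adjusted p = 0.0012) in knockout. The direction turned with the scaling: quantile normalization gave 0.40 in wild type and 0.79 in knockout, and centring gave 0.29 and 0.72. The knockout values then passed as higher, with adjusted p of 0.0070 and 0.0110, so the data give no settled direction for Npy between the tissues.

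Vip (Entrez gene 22353, chromosome 10) was the member of the largest positive difference in knockout motoneurons. Its values were low throughout, at 4.21, 5.12 and 3.76 in wild type motoneurons and 4.53, 5.49 and 6.43 in knockout. Only 4 of these 6 exceeded the highest Y-linked value, the groups overlapped, and the difference of 1.12 (SE 0.51, interval -0.074 to 2.32) did not pass (adjusted p = 0.321). In nerve Vip read 4.09, 4.78 and 4.14 in wild type and 5.84, 4.72 and 4.09 in knockout, a difference of 0.55 (SE 0.43), with 1 array above the Y-linked level. Vip did not pass between tissues as deposited (0.027 and 0.60) and did after quantile normalization of both together (1.40 and 2.11).

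Adcyap1 (Entrez gene 11516, chromosome 17) differed between the tissues by both of its probe sets. Probe set 1 read 7.95, 7.63 and 7.37 in wild type motoneurons and 8.01, 6.63 and 7.80 in knockout, against 4.52, 3.48 and 4.46 in wild type nerve and 5.03, 4.29 and 3.48 in knockout nerve. Its lowest motoneuron value, on knockout replicate 2, still exceeded every nerve value. Motoneurons were higher by 3.50 (SE 0.31) in wild type and 3.21 (SE 0.46, adjusted p = 0.00017 by limma) in knockout, and no nerve value of either Adcyap1 probe set exceeded the highest Y-linked value.

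Adcyap1 probe set 2 read 6.90, 6.73 and 4.81 in wild type motoneurons and 6.14, 5.59 and 6.37 in knockout, and 3.92 to 4.40 over the 6 nerve arrays. Motoneuron wild type replicate 3 lay nearest to nerve, and the tissue differences were 1.92 and 1.93. Between genotypes the probe sets of Adcyap1 differed by -0.17 (SE 0.37) and -0.11 (SE 0.54) in motoneurons, both with overlapping groups.

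Ecel1 (Entrez gene 13599, chromosome 1), a membrane-bound metalloprotease known from injured neurons and needed for motor axon branching, had the highest motoneuron values relative to nerve of any member. It read 12.43, 12.38 and 12.36 in wild type motoneurons and 12.64, 12.83 and 12.61 in knockout, while nerve lay between 6.54 and 6.99. The tissue difference was 5.53 (SE 0.15, adjusted p = 8.9e-08 by limma) in wild type and 6.00 (SE 0.16) in knockout, and was 6.77 and 7.29 in wild type under the other scalings.

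Ecel1 was also the member with the smallest genotype p in motoneurons. All 3 knockout values lay above all 3 wild type values, with means of 12.69 and 12.39, and the difference was 0.30 (SE 0.078, interval 0.12 to 0.48). It did not pass over all probe sets (adjusted p = 0.138 by limma, 0.0049 unadjusted). The highest value came from knockout replicate 2, the motoneuron array of low Xist. Without it the Ecel1 difference was 0.23 (adjusted p = 0.268), and with the Xist level as a covariate 0.21 (adjusted p = 0.363). Over the alternatives run, the adjusted p of Ecel1 ran from 0.0578 to 0.363. In nerve Ecel1 had the opposite sign, at -0.16 (SE 0.17), and the difference of the effects, 0.47 (SE 0.21), did not pass (adjusted p = 0.658).

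Gadd45a (Entrez gene 13197, chromosome 6), a stress gene that takes part in the response to DNA damage and rises early in injured neurons, was high in both tissues. It read 11.23, 11.23 and 10.77 in wild type motoneurons and 10.85, 10.75 and 10.83 in knockout. Wild type replicate 3 lay among the knockout values, and the difference of -0.26 (SE 0.15) did not pass (adjusted p = 0.412 by limma). Without that array the Gadd45a difference was -0.42 and passed (adjusted p = 0.0355), lower in knockout, where 10.3% of all probe sets passed. In nerve it read 11.24, 9.97 and 10.57 in wild type and 10.46, 10.26 and 10.66 in knockout, with overlap. Between tissues Gadd45a passed in knockout, by 0.35 (adjusted p = 0.0337), and not in wild type (0.48, adjusted p = 0.182). The knockout call was lost without nerve replicate 1 or 2 or motoneuron replicate 1 or 3, at adjusted p of 0.0724, 0.0930, 0.0969 and 0.0910, and the wild type difference passed without nerve wild type replicate 1 (adjusted p = 0.0223). After quantile normalization of both tissues together and after centring, the wild type difference of Gadd45a was 1.35 and 2.24 and passed (adjusted p = 0.0078 and 0.00024).

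**Figure D4:**
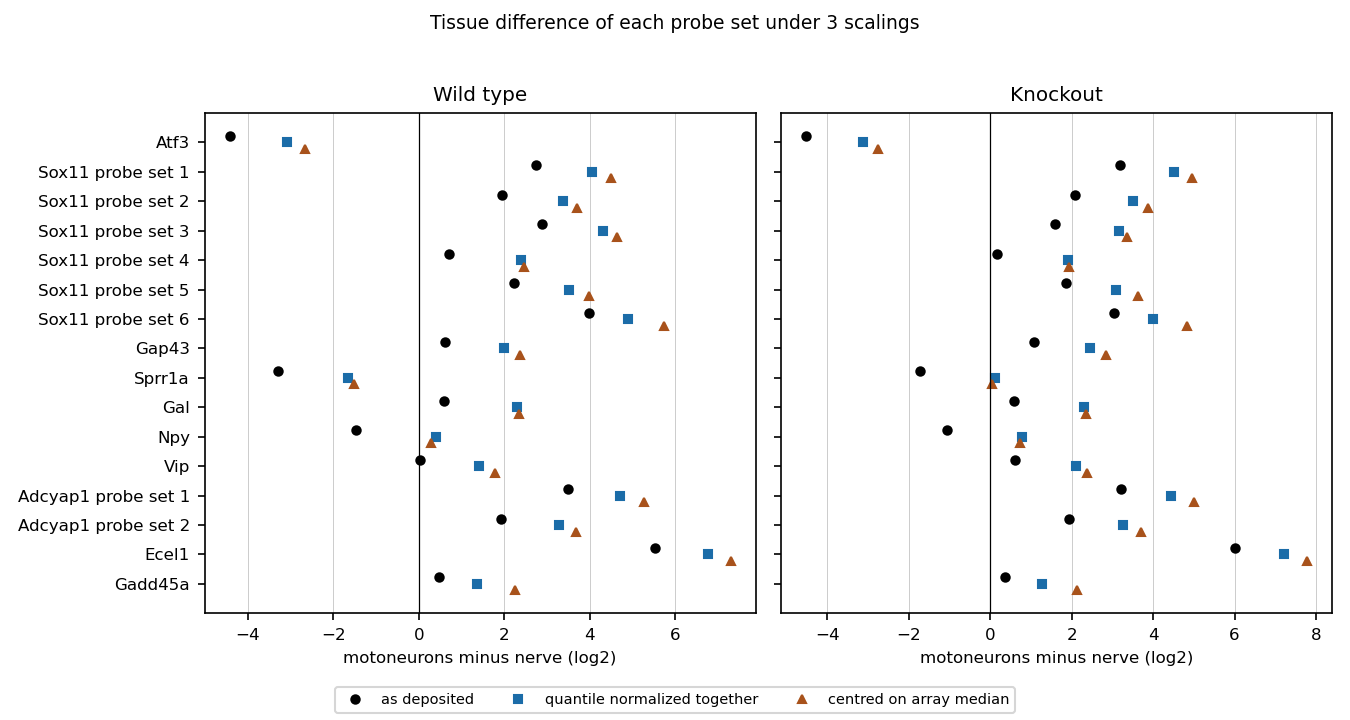
Motoneurons minus nerve difference (x axis, log2) of each member probe set in wild type and in knockout, with the values as deposited (circles), quantile normalized together (squares) and centred on each array's median (triangles). Atf3 is lower and Ecel1, Adcyap1 and Sox11 are higher in motoneurons under all 3, while Npy goes from -1.47 to 0.40 in wild type and Sprr1a from -1.73 to 0.11 in knockout.

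Marker lists of other cells leaned in different directions between genotypes in motoneurons, and those of astrocytes, oligodendrocytes and endothelium leaned lower in knockout. The mean of 8 astrocyte markers was 10.32 to 10.64 in wild type and 9.90 to 10.30 in knockout motoneurons, with 6 of the 8 lower in knockout. The mean of 7 oligodendrocyte markers was 11.13 to 11.73 and 10.62 to 11.36, with all 7 lower. The mean of 8 endothelial markers was 7.19 to 7.40 in wild type and 6.89 to 7.02 in knockout, with 7 lower. Higher and lower values in knockout numbered 5 and 3 for microglia and macrophages, 4 and 2 for Schwann cells and 6 and 2 for skeletal muscle. They numbered 3 and 1 for adipocytes, 3 and 4 for fibroblasts and 3 and 4 for spinal interneurons. None of these genes passed by limma with all arrays. Without motoneuron wild type replicate 3 the fit called 10.3% of all probe sets, Sox11 probe set 3 and Gadd45a among them. In that fit 3 of the 8 astrocyte markers (Aqp4, Slc4a4 and Slc1a3) and 1 of the 7 oligodendrocyte markers (Cldn11) passed as lower, and no endothelial marker did. Of the 9 motoneuron markers, 1 passed as lower there (Isl1) and 1 as higher (Slc5a7). Motoneuron wild type replicate 3 also had the lowest spinal interneuron list mean, 9.32 against 10.16 and 10.14 in the other wild type arrays. Knockout replicate 2 was low as well, at 9.45 against 10.12 and 10.29. The motoneuron list mean overlapped, at 11.67 to 11.92 and 11.62 to 11.91, with 3 of its 9 markers higher and 6 lower in knockout with all arrays. The part of these cells in the differences of Sox11, Ecel1 or Gadd45a was not tested.

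Other genes of the injury response gave no call between genotypes either. Among 16 further regulators of the response, 0 passed in motoneurons, 5 had higher and 11 lower values, and the median was -0.11 beside 0.018 over all 18193 genes. The smallest p-values were those of Klf6, a zinc finger factor of axon growth (-1.18, SE 0.20, adjusted p = 0.107), Smad1, a mediator of BMP signals (-0.65, SE 0.12), the immediate early gene Fos (-0.80, SE 0.25) and Bbc3, a pro-apoptotic gene (-0.70, SE 0.29). Without motoneuron wild type replicate 3, 1 of the 16 passed as higher, Klf7 (0.52), and 4 as lower, Klf6 (-1.42), Fos (-1.12), Myc (-1.44) and Smad1 (-0.74), again in a fit that calls 10.3% of all probe sets.

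In the remaining lists higher and lower values were near equal in number in motoneurons. Of 27 axon growth proteins 13 had higher and 14 lower values in knockout motoneurons and 0 passed. The smallest p-values belonged to Gch1, of tetrahydrobiopterin synthesis (-0.88, SE 0.22, adjusted p = 0.134), Nos1, neuronal nitric oxide synthase (0.81, SE 0.23), the calcium channel subunit gene Cacna2d1 (-0.87, SE 0.31) and Marcks (-0.50, SE 0.20). Without wild type replicate 3, L1cam (0.31) passed as higher, and Tubb3 (-0.23) and Cacna2d1 (-1.22) as lower, where 10.3% of all probe sets passed.

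Of 17 measured genes of cytokine and kinase signals 8 were higher and 9 lower, with 0 passing. Map3k12, the kinase that relays axon injury to the nucleus, had -0.36 (SE 0.068, adjusted p = 0.108), Lifr -0.27 (SE 0.065), Il11 0.62 (SE 0.19) and Mapk10 -0.12 (SE 0.044). Without wild type replicate 3, Map3k12 (-0.35) passed as lower and Jak1 (0.47) as higher, where 10.3% of all probe sets passed.

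Of 16 measured genes of other neuropeptides and their processing 7 were higher and 9 lower, with 0 passing, led by Cpe (-0.13, SE 0.039), Grp (-1.08, SE 0.45), Tac1 (-1.16, SE 0.64) and Penk (0.44, SE 0.33). Grp passed without wild type replicate 3, at -1.65, where 10.3% of all probe sets passed. Of 9 measured receptors for the members' peptides 5 were higher and 4 lower, with 0 passing. These were led by the Y receptor genes Npy5r (-0.51, SE 0.18) and Npy1r (-0.45, SE 0.30), Vipr2 (0.50, SE 0.35) and Npy2r (-0.39, SE 0.30). In nerve no gene of the 5 lists passed, with adjusted p of 1 by limma throughout. Higher and lower values there numbered 6 and 10 for regulators, 15 and 12 for axon growth proteins, 4 and 13 for cytokine signals, 9 and 7 for other neuropeptides and 5 and 4 for receptors. The smallest unadjusted p-values in nerve were those of Tac1 (-0.89, SE 0.36) and Myc (-0.48, SE 0.20).

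Receptors for the members' peptides were unequal between the tissues. Of all probe sets 14.3% passed as higher in motoneurons and 67.9% as lower in wild type as deposited. With quantile normalization 72.5% of all passed, 54.6% of these as higher, and with centring 79.6%, 69.0% of these as higher. In wild type as deposited, 4 of 9 passed as higher in motoneurons, Npy2r (4.66), Npy5r (3.65), Vipr2 (3.03) and the PACAP receptor gene Adcyap1r1 (1.84), and 4 as lower, Npy1r (-2.84), Npy4r (-1.32), Galr1 (-1.18) and Vipr1 (-0.93). Under both other scalings 7 passed as higher and 1, Npy1r, as lower, at -1.34 after quantile normalization and -1.08 after centring. The direction turned for Galr1 (0.54 and 0.58) and Vipr1 (0.81 and 0.83), which then passed as higher, as did the galanin receptor gene Galr2 (1.35 and 1.33), and Npy4r no longer passed (-0.060 and 0.44). The receptor that binds PACAP most selectively and Adcyap1 itself were both higher in wild type motoneurons than in nerve.

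The counts of the other lists also changed with the scaling of the tissues, as did those of all probe sets. As deposited 14.3% of all probe sets passed as higher and 67.9% as lower in wild type. After quantile normalization 72.5% of all passed, 54.6% of these as higher, and after centring 79.6%, 69.0% of these as higher. Among regulators 1 passed as higher and 11 as lower in wild type as deposited, 7 and 6 after quantile normalization and 10 and 2 after centring on the array median. For axon growth proteins these were 8 and 14, then 14 and 9, then 17 and 7. For cytokine signals they were 4 and 11, then 6 and 7, then 8 and 7, and for other neuropeptides 10 and 4, then 13 and 1, then 14 and 0. The beta-tubulin gene Tubb3 (6.87) and the peptide gene Calcb (8.36) were among the higher ones, and the Schwann cell receptor gene Ngfr (-4.89) and the cytokine gene Lif (-4.50) among the lower, as deposited and, in direction, under both other scalings.

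As a description, probe sets whose pattern over the 6 motoneuron arrays was most like that of Atf3 were those of Hfe (Pearson r of 0.995), Gna14 (0.993) and Ginm1 (0.989), the highest of 20408 compared. Those most like Gap43 were Zfp157 (0.994), 1700007K13Rik (0.980) and Senp2 (0.978). These arrays share their platform and scaling, and the genes were picked as the highest of all those compared.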

How the data were processed

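RNA of 12 samples (3 for each of 2 tissues and 2 genotypes, from the labels) was measured on Affymetrix arrays. The authors deposited log2 expression values, made with Affymetrix Expression Console 1.1 per the submitters' processing notes. How probes were summarized and background was corrected is not given in the sources used here. Precision is limited by the number of arrays. Of 45101 probe sets, 64 controls were left out. Annotation gave 34945 exactly 1 symbol, updated through RefSeq for 34754; in gene lists each gene was represented by its probe set of highest mean.

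Each fit used limma 3.58.1 (lmFit, eBayes with mean trend, two-sided) under R 4.3.3, with Benjamini-Hochberg adjustment over all 45037 probe sets at 0.05, and tested on simulated data. Exact tests of 3 against 3 arrays cannot give a p below 0.1 and were not used. The members and lists were chosen with earlier results of these data known. The text names every member probe set, genes of each list that passed between genotypes or up to 4 by smallest p, and the 3 genes most like Atf3 and Gap43; genes named between tissues, those called without motoneuron wild type replicate 3 and the skin list were chosen after their values were seen. Alternatives covered scaling, filtering, weights, trend, covariates and each array left out. A planned comparison of precursor proteins was not run, since no protein table was used here. Plots used matplotlib 3.10.9 (Python 3.11.15).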

Additional observations from a re-analysis of the deposited data

How the results depend on the processing

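The count of members called between genotypes was 0 in nerve, in the interaction and in motoneurons under every alternative run, except that leaving out each motoneuron array gave 0 to 2 calls, with 2 (Sox11 probe set 3 and Gadd45a) only without wild type replicate 3, where 10.3% of all probe sets were called. The share of all probe sets called in motoneurons was also above 0% in other alternatives. It was 6.5% with array weights, 1.84% with all 12 arrays in 1 fit and 0.271% with the filter on the mean. In the interaction it was at most 0.528%, without motoneuron wild type replicate 3, and in nerve at most 0.00222%, with all 12 arrays in 1 fit. Between tissues 12 member probe sets were called in wild type and 14 in knockout, where 82.1% and 82.7% of all were; leaving out probe sets with a mean below the median left 6 of the 8 tested in wild type and 6 of the 6 tested in knockout, where 81.4% and 84.9% of all were called. Directions turned for Npy in wild type (0.40 quantile normalized, 0.29 centred) and knockout (0.79, 0.72) and for Sprr1a in knockout (0.11, 0.049). Among all called probe sets the share higher in motoneurons moved from 17.4% to 54.6% and 69.0% in wild type, and from 18.4% to 54.7% and 69.5% in knockout, under quantile normalization and centring. Signs of differences called under neither setting changed in 13 of 217 alternative values in motoneurons, 24 of 227 in nerve and 25 of 295 in the interaction. Sprr1a between wild type tissues also lost its call without a mean trend (adjusted p = 0.0624) and with Xist as a covariate (0.158); in knockout it lost it with all 12 arrays in 1 fit (0.157), as did Gadd45a (0.215). Replicate numbers were not treated as pairs in the main fits. Correlations of the deviations of same-numbered arrays ran from -0.079 to 0.305. They were highest between the genotypes in nerve (0.026, 0.305 and 0.216), and whether the samples were paired was not tested. With the replicate number as a block the counts were 0 in both genotype comparisons, 12 in wild type and 13 in knockout (80.8% and 82.1% of all), and Gal lost its call in knockout (adjusted p = 0.0750). The alternatives without high-Xist nerve arrays and those for the gene lists were chosen after seeing the data. The causes of these changes were not tested.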
